A study of Mus musculus with 22 samples.

Results

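The genes described here make cholesterol and fatty acids. They are 31 genes chosen by name: 7 of the mevalonate pathway, 11 that carry squalene to cholesterol, 6 that sense or carry sterol and 7 of fatty acid synthesis. A probe naming the gene was found for 28 of the 31, among 19057 genes with such a probe, and Acat2, Hmgcs1 and Fdft1 were not analysed here. Each gene was read from its brightest probe. The gene listed as Sc4mol is given under its current name, Msmo1.

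The hearts came from C57BL/6 mice in which Ronin, a zinc finger factor encoded by Thap11, was removed by Cre recombinase. Knockouts (KO) carried 2 floxed Ronin alleles and controls (Ctrl) carried 1 floxed allele and 1 wild-type allele, and both carried the Cre transgene. With Nkx2.5::Cre, which acts in early cardiac progenitors, hearts were taken at E9.5 (2 KO and 2 Ctrl arrays, 10 hearts pooled for each) and at E11.5 (3 KO and 3 Ctrl arrays). With αMHC::Cre, labelled MHC, which acts in cardiomyocytes, they were taken at E11.5, at birth (P0) and at 6 weeks (2 KO and 2 Ctrl arrays each). The genotype labels of the αMHC knockouts name Nkx2.5::Cre, and the titles and source names, which say MHC, were followed. Whole hearts were measured on Illumina MouseWG-6 v2.0 bead arrays, so fewer cells of a type and less RNA per cell cannot be told apart. Outside the E9.5 pools no label states that arrays hold separate animals, and p-values measure the spread between these arrays.

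Cells build sterols from acetyl-CoA through mevalonate, farnesyl diphosphate and squalene. When membrane sterol is low, Scap escorts the precursors of Srebf1 and Srebf2 (SREBP-1 and SREBP-2) to the Golgi, where they are cut free and switch on nearly every gene of the route. Insig1 and Insig2 hold that complex back when sterol is plentiful. SREBP-1 acts mainly on fatty acid genes such as Fasn and Scd1, and SREBP-2 mainly on sterol genes. The adult heart lives largely on fatty acids taken from blood, whereas the growing embryonic heart needs new membrane.

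SREBPs are known to work beside the factor NF-Y, which binds the letters CCAAT. RefSeq promoters (GRCm38.p6, 250 bases before to 50 after the start) were given for 23 of the 28 members and not for Fdps, Sqle, Stard4, Scd1 or Scd2, which were not searched. CCAAT, on either strand, was found in 20 of the 23 (87.0%), against 41.1% of 27025 genes, and was absent from these windows of Acaca, Elovl6 and Scap. CACGTG was found in 5 of the 23 (21.7%), against 8.09% of all genes. The sterol regulatory element written as TCACNCCAC, on either strand, was found in none of the 23 and in 1.44% of all genes. The Ronin element, searched by its name on both strands, was found in 1 of the 23 searched members, Acly (4.3%), against 2.61% of all genes. The last 150 bases before the start follow for 4 sterol genes whose control level was lower at 6 weeks than at E11.5, for Acss2, whose level was higher, and for Acly. These genes were picked among members that carry the marked motif, and a link between motif and age was not tested. Capitals mark CCAAT or its complement ATTGG in the first 5 stretches and the Ronin element in Acly.
Srebf2, chr15:82147119-82147268, plus strand: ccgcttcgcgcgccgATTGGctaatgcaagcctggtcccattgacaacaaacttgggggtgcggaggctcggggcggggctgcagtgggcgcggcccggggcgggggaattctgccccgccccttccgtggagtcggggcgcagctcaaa
Msmo1, chr8:64733579-64733728, minus strand: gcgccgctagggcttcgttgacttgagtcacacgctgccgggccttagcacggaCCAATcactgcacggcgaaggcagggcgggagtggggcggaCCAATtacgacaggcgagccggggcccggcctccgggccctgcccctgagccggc
Cyp51, chr5:4104698-4104847, minus strand: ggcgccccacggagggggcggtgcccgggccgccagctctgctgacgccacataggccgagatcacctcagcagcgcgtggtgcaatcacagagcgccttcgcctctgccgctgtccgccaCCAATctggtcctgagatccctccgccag
Mvd, chr8:122443423-122443572, minus strand: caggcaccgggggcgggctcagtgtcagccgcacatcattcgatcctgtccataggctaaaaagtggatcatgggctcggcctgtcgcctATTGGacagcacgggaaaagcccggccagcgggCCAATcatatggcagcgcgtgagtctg
Acss2, chr2:155517893-155518042, plus strand: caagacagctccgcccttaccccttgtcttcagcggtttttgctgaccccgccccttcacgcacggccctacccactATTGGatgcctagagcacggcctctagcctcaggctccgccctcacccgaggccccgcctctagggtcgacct
Acly, chr11:100528001-100528150, minus strand: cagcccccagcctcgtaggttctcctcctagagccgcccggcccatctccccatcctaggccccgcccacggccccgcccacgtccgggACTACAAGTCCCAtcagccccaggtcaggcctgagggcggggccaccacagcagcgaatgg
Msmo1 and Mvd each held 2 CCAAT boxes in the printed window and Srebf2, Cyp51 and Acss2 held 1.

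Thap11 itself was lower in every knockout array than in every control array of its comparison. Its log2 fold change was -0.41 to -1.61 over the 5 comparisons and -0.74 ± 0.13 (SE) in their mean (limma, adjusted p = 0.0020). It passed the test on its own at 6 weeks, at 289.9 and 772.5 in KO and 1438 and 1456 in Ctrl (adjusted p = 0.041), a call that was lost with those arrays fitted alone (adjusted p = 0.40), with quantile normalization over all arrays (0.089), with the mean of a gene's probes (0.057) and without Ctrl 1, Ctrl 2 or KO 1. It was not known whether the deletion covers its probe. Xist, which is transcribed from the inactive X chromosome of females, was 49.9 and 54.9 in the αMHC E11.5 knockouts and 1888 and 1989 in their controls. Sex and genotype therefore cannot be told apart in that comparison. At 6 weeks each group held 1 array with low Xist (58.5 in KO, 57.5 in Ctrl) and 1 with high Xist (689 in KO, 556 in Ctrl). At Nkx2.5 E11.5 Xist was low in 2 KO arrays (40.1 and 36.7 in KO 2 and KO 3) and in 1 Ctrl array (47.0 in Ctrl 3).

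In control hearts most of the measured sterol enzyme genes were brighter in the embryo than at 6 weeks. The values of the different ages had been normalized separately, so the ages were set side by side after quantile normalization of all 22 arrays, as a description with no test. Age and normalization batch still cannot be told apart. Xist also differed, at 1888 and 1989 in the αMHC E11.5 controls and 57.5 and 556 in the 6-week controls, and its part was not tested. From the αMHC E11.5 controls to the 6-week controls, 20 of the 28 genes were lower at 6 weeks and 8 were higher, with a median log2 difference of -0.66, against -0.06 over 13542 genes. Of the 28, 13 (46.4%) were lower by more than 1 on the log2 scale, against 16.3% of all genes, and 4 were higher by more than 1, against 12.5% of all genes.

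All 5 measured mevalonate genes were lower at 6 weeks. Fdps, which makes farnesyl diphosphate, the last shared precursor of sterols and of protein prenyl groups, had control levels of 4723 at E9.5, 3242 at E11.5 (Nkx2.5), 3406 at E11.5 (αMHC), 2410 at P0 and 1095 at 6 weeks. Mvd, the mevalonate diphosphate decarboxylase, had 704 at E9.5, 450 and 410 in the E11.5 sets, 153 at P0 and 147 at 6 weeks. For both genes the E9.5 level was the brightest and the 6-week level the dimmest, although the P0 and 6-week levels of Mvd were within their spread (SD 0.32 and 0.53 on the log2 scale). The kinase Pmvk differed by -0.55 between 6 weeks and αMHC E11.5. Mvk had 59.6 at 6 weeks, below the median of all probes, and 124 at αMHC E11.5, so its difference has no exact size. The isomerase Idi1 differed by -0.39 and was brightest at P0.

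Of the 10 measured genes between squalene and cholesterol, 8 were lower at 6 weeks than at αMHC E11.5. The widest difference of any member was in Sqle, the squalene epoxidase, a rate-limiting oxygen-dependent step. Its control level was 2673 at E9.5, 1752 and 2024 in the E11.5 sets, 1033 at P0 and 142 at 6 weeks, 14.2-fold lower than in αMHC E11.5 controls. A second, dimmer Sqle probe was 3.78-fold lower and lay below the median of all probes at 6 weeks. Msmo1, the C4-methylsterol oxidase, was 3.53-fold lower and the lanosterol demethylase Cyp51 2.33-fold lower. The lanosterol synthase Lss had 67.3 at 6 weeks, below the median of all probes, and 213 at αMHC E11.5. A second Lss probe differed by 0.24 in the other direction (99.5 and 84.5). Hsd17b7, a ketosteroid reductase of the same route, was 2.18-fold lower. Ebp, the sterol isomerase, and Sc5d, the lathosterol oxidase, differed by only 0.25 and 0.03 on the log2 scale. Nsdhl, counted among the lower genes, differed by only -0.05 and was brightest at P0.

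The regulators divided. The bright Srebf2 probe was 4.51-fold lower at 6 weeks than at αMHC E11.5 (164 and 738), but a second probe, above the median of all probes at each age, was only 1.21-fold lower, at 315 at αMHC E11.5, 339 at P0 and 259.5 at 6 weeks. The size of the Srebf2 difference thus depends on the probe. Stard4, which carries cholesterol through the cytosol and has 1 probe, was 4.97-fold lower (253 and 1259). Insig2 was 2.80-fold higher (2176 and 776) and Insig1 was higher by 1.32 on the log2 scale (524 and 209.5). The arrays of the 2 ages did not overlap for either, but the share of all genes without such overlap was not counted. Srebf1 and Scap differed by -0.34 and 0.44 on the log2 scale, and a dimmer Scap probe by -0.22.

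The fatty acid genes had no common direction with age. Elovl6, which lengthens C16 fatty acids, had 680 at αMHC E11.5 and 203 at P0, and at 6 weeks 70.4, below the median of all probes, so no fold is given for that age. Acly, the ATP citrate lyase that supplies cytosolic acetyl-CoA, was 2.84-fold lower (1933 and 5496). Acss2, which makes acetyl-CoA from acetate, was 2.17-fold higher (1992 and 919), and its level was higher at each later age. The desaturase Scd2 had 564 at P0 and 94.4 at 6 weeks, where its 2 arrays differed widely (59.2 and 150.6), whereas its relative Scd1 had 357 and 353. Fasn, the fatty acid synthase, and Acaca, the acetyl-CoA carboxylase, were dim at every age and differed by 0.06 and -0.10.

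**Figure D1:**
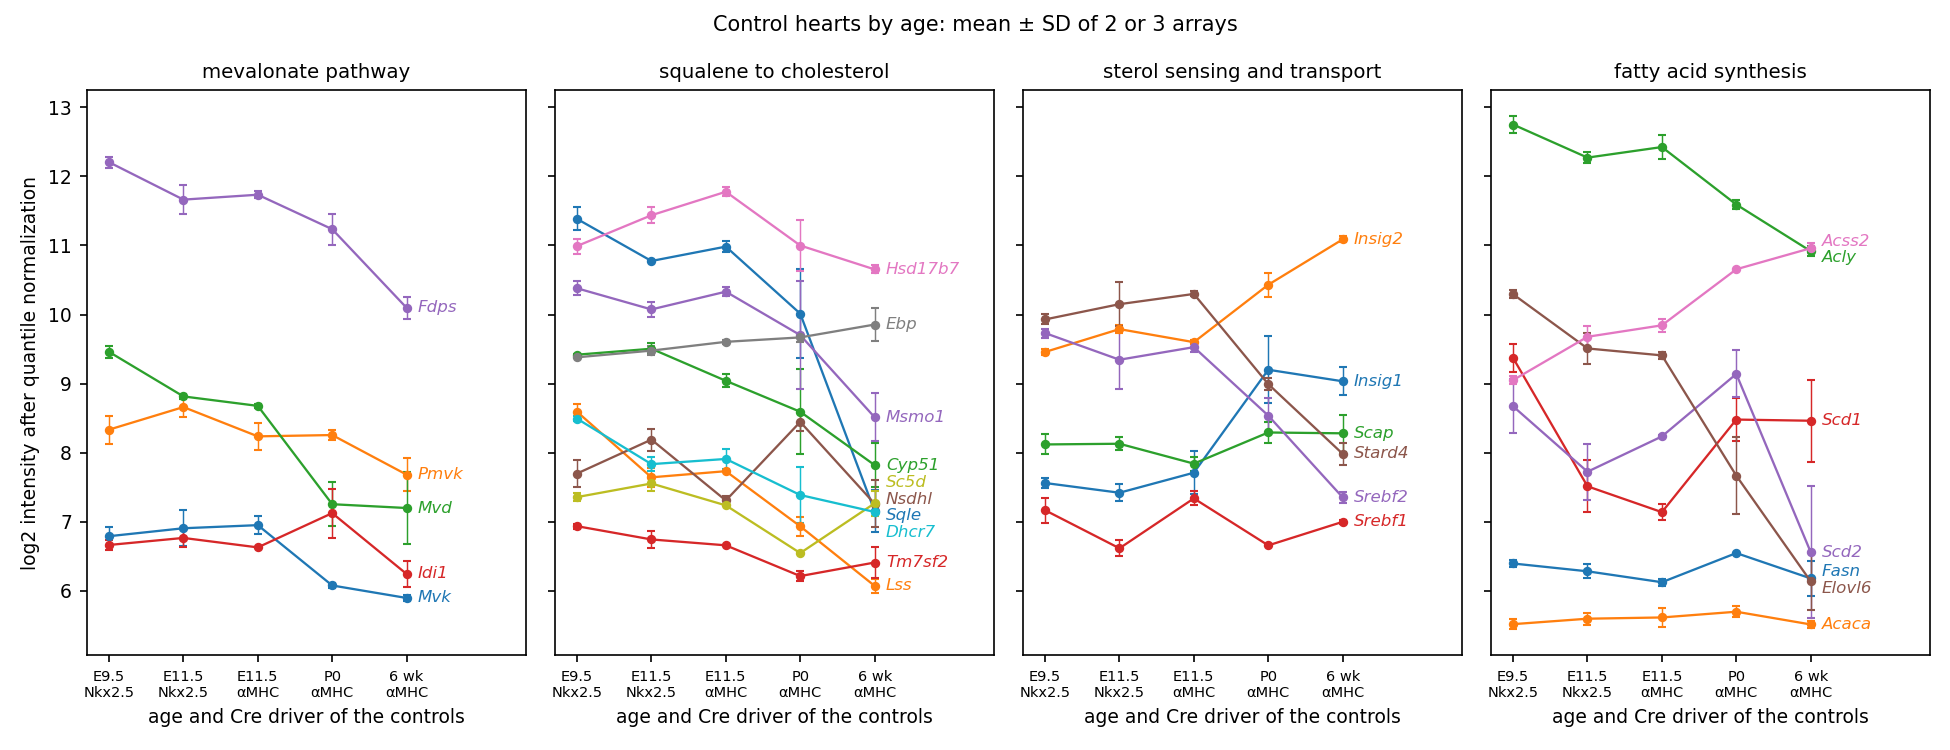
Control hearts only, 1 panel per gene group. The horizontal axis gives age and Cre driver, and the vertical axis log2 intensity after quantile normalization of all arrays, as mean ± SD of 2 or 3 arrays. The probes used for Sqle, Srebf2, Stard4 and Elovl6 descend to 6 weeks while Insig1, Insig2, Scd1 and Acss2 end above their E11.5 level.

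The 2 sets of E11.5 controls show how far such levels carry. The median difference of the 28 genes between them (αMHC minus Nkx2.5) was 0.06, but single genes differed by -0.88 (Nsdhl, an X-linked sterol dehydrogenase) to 0.72 (Srebf1). Xist was 1888 and 1989 in the αMHC controls and 659, 1018 and 47.0 in the Nkx2.5 controls. Cre driver, separate normalization and sex differ between the sets and cannot be told apart.

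Between knockouts and controls, Fdps was the only member that passed the test in the main model, which held no replicate block. Arrays of the same number deviated together at Nkx2.5 E11.5. With replicate numbers as a block, Scd1 also passed there, where that model called 254 of 11827 genes higher and 235 lower. A gene was tested where its probe was above the median of all probes, and called at a Benjamini-Hochberg adjusted p under 0.05 in limma. No member was called among 27 tested at Nkx2.5 E9.5, where 0.495% of all genes were called. None was called among 27 at Nkx2.5 E11.5 (0.49% of all genes), 27 at αMHC E11.5 (0.0084%) or 26 at αMHC P0 (0%). At 6 weeks 1 of 26 was called, Fdps, which fell (1.77% of all genes were called). In the mean of the 5 comparisons 1 of 26 was called, again Fdps (1.96%). The median standard error of a member was 0.14 to 0.25 on the log2 scale in the single comparisons and 0.08 in their mean, so that small differences could not be detected here.

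At an unadjusted p under 0.05 the members were called no more often than other genes in 4 of the 5 comparisons. These were 1 of 27 at Nkx2.5 E9.5 (4.75% of all genes), 1 of 27 at Nkx2.5 E11.5 (8.5%), 2 of 27 at αMHC E11.5 (4.39%), while 1 of 26 passed at P0 (4.21%), and 1 of 26 did so in the 6-week hearts (10.6%). In the mean it was 1 of 26 (11%). The member medians were -0.07, -0.09, 0.03, -0.12 and 0.01 in that order, against 0.01, -0.02, -0.01, -0.00 and 0.02 over all genes tested. Below 0 lay 21 of 27, 17 of 27, 10 of 27, 21 of 26 and 12 of 26 members, while 46.1% to 53% of all genes lay above 0. The members share arrays, and these counts were not tested as a shift of the set. At Nkx2.5 E9.5 the squalene to cholesterol genes averaged 0.01 from the control mean in KO 1 and -0.16 in KO 2. The fatty acid genes averaged -0.01 and -0.23, the mevalonate genes -0.07 and -0.05, and the sterol sensing and transport genes -0.13 and -0.06.

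**Figure D2:**
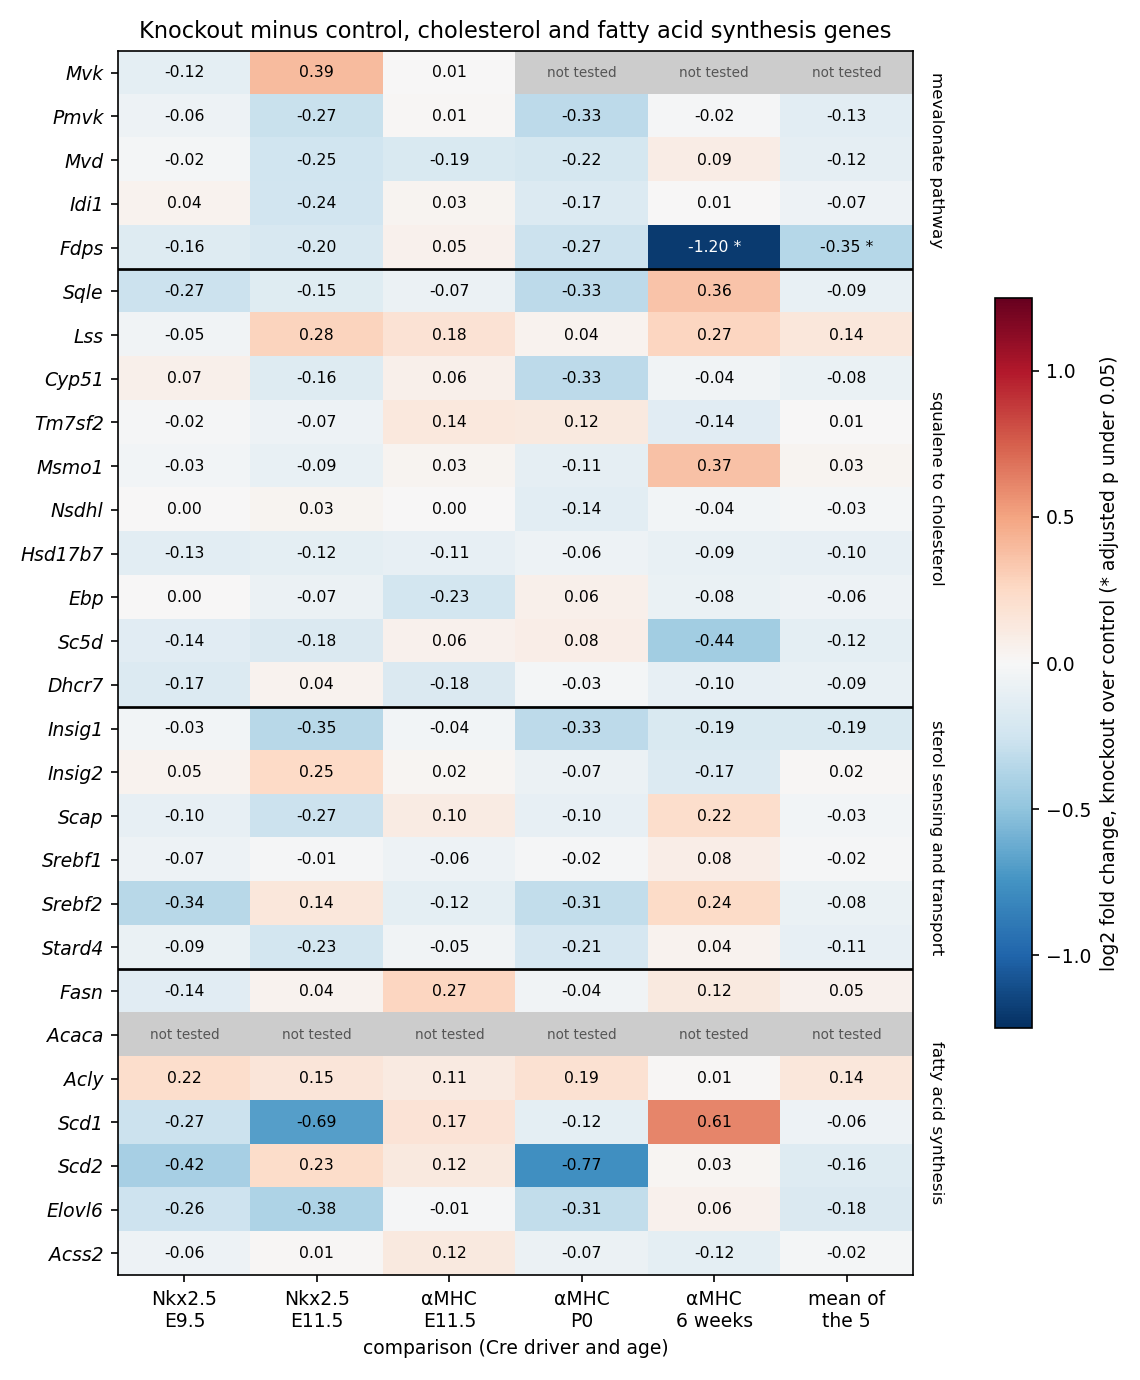
Each row is a gene, each column a comparison, and colour and number give the log2 fold change of KO over Ctrl. Grey cells were too dim to be tested and an asterisk marks an adjusted p under 0.05. The 2 marked cells are both Fdps, and most other cells lie between -0.4 and 0.4.

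Fdps lies at chr3:89093588-89101967 (GRCm38.p6). At 6 weeks its intensity was 367 and 455 in KO hearts and 1010.3 and 867 in Ctrl hearts. The groups did not overlap, as in 37.5% of all genes tested at this age, and KO hearts held 0.437 of the Ctrl level. The log2 fold change was -1.196 ± 0.19 (SE, limma, adjusted p = 0.0019). Within the arrays of low Xist the values were 367 in KO and 1010.3 in Ctrl, and within those of high Xist they were 455 in KO and 867 in Ctrl.

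At the earlier ages Fdps differed less. It was 4303 and 4103 in Nkx2.5 E9.5 KO hearts and 4897 and 4477 in Ctrl hearts (-0.16). At Nkx2.5 E11.5 it was 1889, 1909.6 and 1899 in KO and 2341, 2391 and 1871 in Ctrl (-0.20). These E11.5 groups overlapped, since Ctrl 3 lay below every knockout. At αMHC E11.5 it was 4529 and 3979 in KO and 4004 and 4171 in Ctrl (0.05), and at P0 3148 and 3120.1 in KO and 3392 and 4200.3 in Ctrl (-0.27). In the mean of the 5 comparisons Fdps fell by 0.35 ± 0.06 (SE, adjusted p = 0.0027), and of its 5 parts that at 6 weeks was the largest.

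The fall at 6 weeks rests on 1 probe and on the pooled spread of all arrays. A second, dimmer Fdps probe gave 66.7 and 76.3 in KO and 71.5 and 64.1 in Ctrl, a log2 difference of 0.08, and lay below the median of all probes at this age. With the mean of both probes the fold change was -0.56 and was not called (adjusted p = 0.14). It was also not called without Ctrl 1 (-1.08, adjusted p = 0.14) or with the 6-week arrays fitted alone (adjusted p = 0.27).

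**Figure D3:**
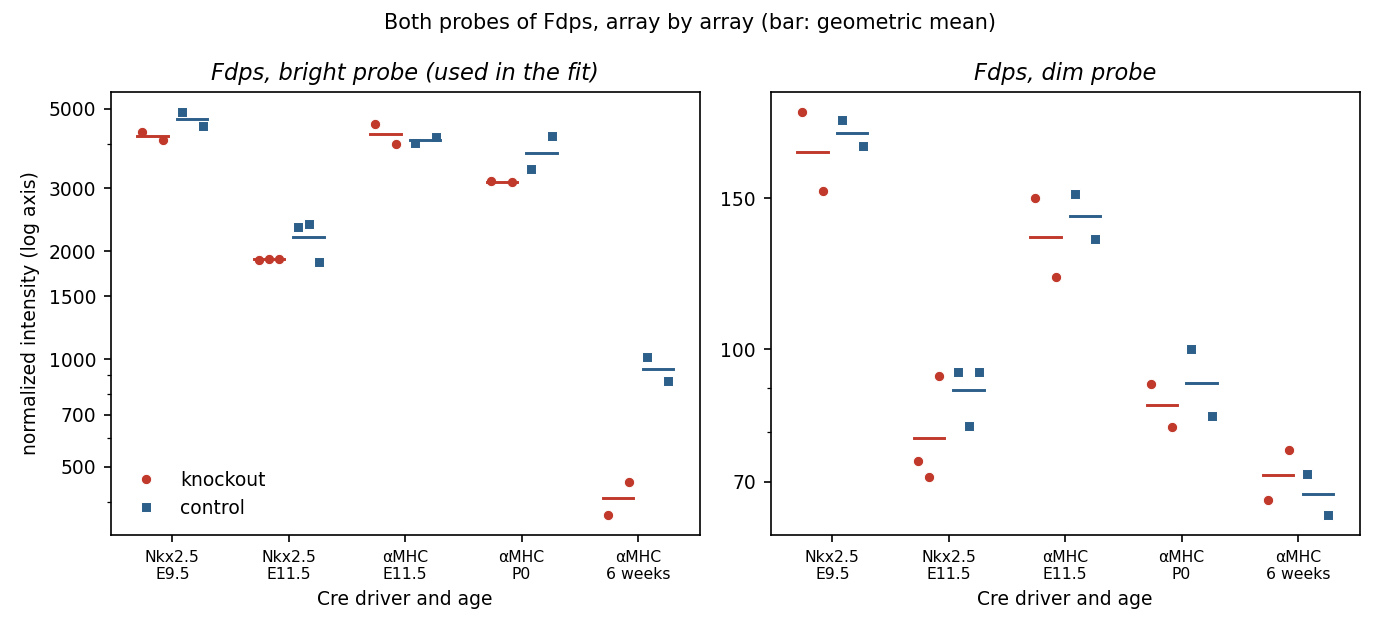
The 2 panels give the bright and the dim Fdps probe on log axes of normalized intensity, with 1 point per array and a bar at the geometric mean. Values were normalized within each comparison, so heights compare only KO with Ctrl of the same age. At 6 weeks the bright probe separates 367 and 455 in KO from 867 and 1010.3 in Ctrl, and the dim probe does not separate them.

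The other mevalonate genes were not called in any comparison where they were tested. Mvk was too dim to be tested at P0 and at 6 weeks. Pmvk, the phosphomevalonate kinase, was 447 and 329 in P0 KO hearts and 467 and 498 in P0 Ctrl hearts (-0.33 ± 0.20, adjusted p = 0.9998). Mvk, the mevalonate kinase, was 108, 178 and 95.5 in Nkx2.5 E11.5 KO hearts and 102, 103 and 77.6 in Ctrl hearts (0.39 ± 0.21, adjusted p = 0.65). Its excess was mostly KO 2. Mvd and Idi1 ranged from -0.25 to 0.09 over the 5 comparisons.

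The 10 enzymes between squalene and cholesterol lay close to the controls. Their group medians were -0.04, -0.08, 0.02, -0.05 and -0.06 from Nkx2.5 E9.5 to 6 weeks. Sqle was 166 and 186 in 6-week KO hearts and 119 and 156 in Ctrl hearts (0.36 ± 0.31), and Msmo1 was 433 and 395 in KO and 272 and 377 in Ctrl (0.37 ± 0.37). For both genes the KO arrays lay just above the Ctrl arrays, as in 19.6% of all genes tested at this age. Neither gene was called (limma, adjusted p = 0.87 and 0.93). Sc5d was 96.9 and 120.3 in 6-week KO hearts and 134 and 159 in Ctrl hearts (-0.44 ± 0.21, adjusted p = 0.50).

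Ebp, an X-linked gene, was 836 and 774 in αMHC E11.5 KO hearts and 928 and 955 in Ctrl hearts (-0.23 ± 0.09, adjusted p = 0.9998). This is the comparison whose groups also differ in Xist, and the part of sex in the value was not tested. Tm7sf2, a sterol C14 reductase, was 116 and 107 in αMHC E11.5 KO hearts and 102 and 101 in Ctrl hearts (0.14 ± 0.09, adjusted p = 0.9998). Lss, Cyp51, Nsdhl, Hsd17b7 and Dhcr7, which makes the final reduction to cholesterol, ranged from -0.33 to 0.28 over the 5 comparisons.

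Of the regulators, Srebf2 had the lowest p in a single comparison. It was 668 and 707 in Nkx2.5 E9.5 KO hearts and 844 and 904 in Ctrl hearts (-0.34 ± 0.15, adjusted p = 0.91), and a second, dimmer probe differed by -0.15. At E9.5 all 6 hepatocyte markers tested lay below 0 (median -0.39, sums 1424 to 4229 in KO and 2668 to 4238 in Ctrl), while Alb, Ahsg and Fgb were too dim to be tested. The brightest were lowest in KO 2, with Ttr at 2075 and 650 in KO and 2238 and 1413 in Ctrl. Apoa2 was 1458 and 306 in KO and 1314 and 584 in Ctrl. The part of these markers in the Srebf2 value was not tested. At P0 Srebf2 was 449 and 499.98 in KO and 519 and 662 in Ctrl (-0.31). The groups did not overlap at either age, as in 29.8% of all genes at Nkx2.5 E9.5 and 30.3% at P0. At Nkx2.5 E11.5 they overlapped, with 420.2, 588 and 550.3 in KO and 457, 620.2 and 357 in Ctrl (0.14). At αMHC E11.5 Srebf2 was 780.1 and 865 in KO and 924 and 863 in Ctrl (-0.12), and at 6 weeks 208 and 161 in KO and 149 and 161 in Ctrl (0.24). The direction was thus not the same at every age.

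Srebf1 differed by no more than 0.08 in either direction. It was 128 and 131 in Nkx2.5 E9.5 KO and 150 and 123 in Ctrl hearts, 65.6, 68.4 and 103 in Nkx2.5 E11.5 KO and 75.9, 74.2 and 84.6 in Ctrl hearts. With αMHC::Cre it was 157 and 174 in E11.5 KO and 164 and 182 in Ctrl hearts, 157 and 154 in P0 KO and 156 and 159 in Ctrl hearts, and 137 and 125 in 6-week KO and 125 and 122 in Ctrl hearts. The groups overlapped at every age.

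Scap, the escort, was 260 and 251 in Nkx2.5 E9.5 KO and 297 and 254 in Ctrl hearts (-0.10), and 194, 175 and 148 in Nkx2.5 E11.5 KO and 209.8, 217 and 193 in Ctrl hearts (-0.27). With αMHC::Cre it was 263 and 286 in E11.5 KO and 242 and 271 in Ctrl hearts (0.10), 514 and 415 in P0 KO and 533 and 463 in Ctrl hearts (-0.10), and 340 and 302 in 6-week KO and 243 and 310 in Ctrl hearts (0.22). None of these differences was called.

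Insig1 was 162 and 193 in Nkx2.5 E9.5 KO and 188 and 174 in Ctrl hearts (-0.03), and 108, 127 and 75.8 in Nkx2.5 E11.5 KO and 139, 129 and 119.5 in Ctrl hearts (-0.35). With αMHC::Cre it was 234 and 216 in E11.5 KO and 274 and 194 in Ctrl hearts (-0.04), 669 and 809 in P0 KO and 725 and 1174 in Ctrl hearts (-0.33), and 274 and 581 in 6-week KO and 413 and 502 in Ctrl hearts (-0.19). All 5 fold changes were below 0, the groups overlapped in each comparison, and the mean was -0.19 ± 0.12 (adjusted p = 0.65). Insig2 was 829, 742 and 668 in Nkx2.5 E11.5 KO hearts and 651, 618 and 606 in Ctrl hearts (0.25 ± 0.13, adjusted p = 0.65). A second Insig2 probe, also well above the median, differed by 0.19 there with overlapping groups. The 2 probes did not run alike at the later ages, where the second differed by -0.30 at αMHC E11.5, 0.24 at P0 and -0.55 at 6 weeks and the first by 0.02, -0.07 and -0.17.

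In the fatty acid group the desaturases moved most, and not in 1 direction. Scd1, which makes oleate and is a standard SREBP-1 target, was 92.8, 86.5 and 76.4 in Nkx2.5 E11.5 KO hearts and 182, 122 and 116 in Ctrl hearts. Every knockout lay below every control, as in 8.57% of all genes tested there (-0.69 ± 0.23, limma, adjusted p = 0.32). Ctrl 1 lay far above the other controls. In the same arrays 6 of 7 erythroid markers lay above 0 (median 0.41, sums 146400 to 222800 in KO and 133800 to 176600 in Ctrl), as did 5 of 6 fibroblast and epicardial markers (median 0.34, sums 6063 to 9393 in KO and 4920 to 6647 in Ctrl), and their part in the Scd1 value was not tested. Arrays of the same number deviated together in this comparison, and Scd1 was called once replicate numbers entered the model as a block (adjusted p = 0.026). It was then 1 of 27 members called, while 254 of all 11827 genes tested were called higher and 235 lower. Without Ctrl 1 and with no block the fold change was -0.48 (adjusted p = 0.77).

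Scd1 ran the other way at 6 weeks, at 501 and 451 in KO and 237 and 408 in Ctrl (0.61 ± 0.33, adjusted p = 0.59). Summed adipocyte markers, of which 8 of 9 had a probe, were 2741 to 4609 in those KO hearts and 2037 to 2750 in Ctrl hearts, but most of that sum was Cidea (4139 and 2216 in KO, 1539 and 2123 in Ctrl). Adipoq was 70.9 and 77.7 in KO and 81.3 and 138 in Ctrl, Fabp4 was 65.6 and 117 in KO and 68.7 and 130.5 in Ctrl, and Plin1, Retn, Ucp1 and Car3 lay below the median of all probes. Of the 4 adipocyte markers tested 2 lay above 0 (median 0.02), and their part in the Scd1 value was not tested. Scd2 was 599 and 449 in P0 KO hearts and 746 and 1046 in P0 Ctrl hearts (-0.77 ± 0.35, adjusted p = 0.9998).

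Fasn was 84.4 and 78.1 in αMHC E11.5 KO hearts and 65.8 and 69.2 in Ctrl hearts (0.27 ± 0.08, adjusted p = 0.49). At Nkx2.5 E9.5 it was 67.9 and 64.2 in KO and 74.9 and 70.8 in Ctrl (-0.14 ± 0.08, adjusted p = 0.9995). The probe was dim throughout. In the αMHC E11.5 hearts, summed erythroid markers were 230100 to 258300 in KO and 209600 to 211100 in Ctrl, and summed fibroblast markers 9292 to 10210 in KO and 11410 to 11880 in Ctrl, and their part in the Fasn value was not tested.

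Acly, the one of the 23 searched members with a Ronin element in its promoter, was 8542 and 7354 in Nkx2.5 E9.5 KO hearts and 7257 and 6376 in Ctrl hearts (0.22 ± 0.12, adjusted p = 0.9995). Its fold change was above 0 in all 5 comparisons (0.22, 0.15, 0.11, 0.19 and 0.01), and in their mean it was 0.14 ± 0.07 (adjusted p = 0.49), which was not called. The groups overlapped in every comparison but Nkx2.5 E9.5, where KO lay above Ctrl in 15.9% of all genes. The share of all genes with the same sign in all 5 was not counted. Elovl6 and Acss2 ranged from -0.38 to 0.12, and Acaca was too dim to be tested in any comparison.

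**Figure D4:**
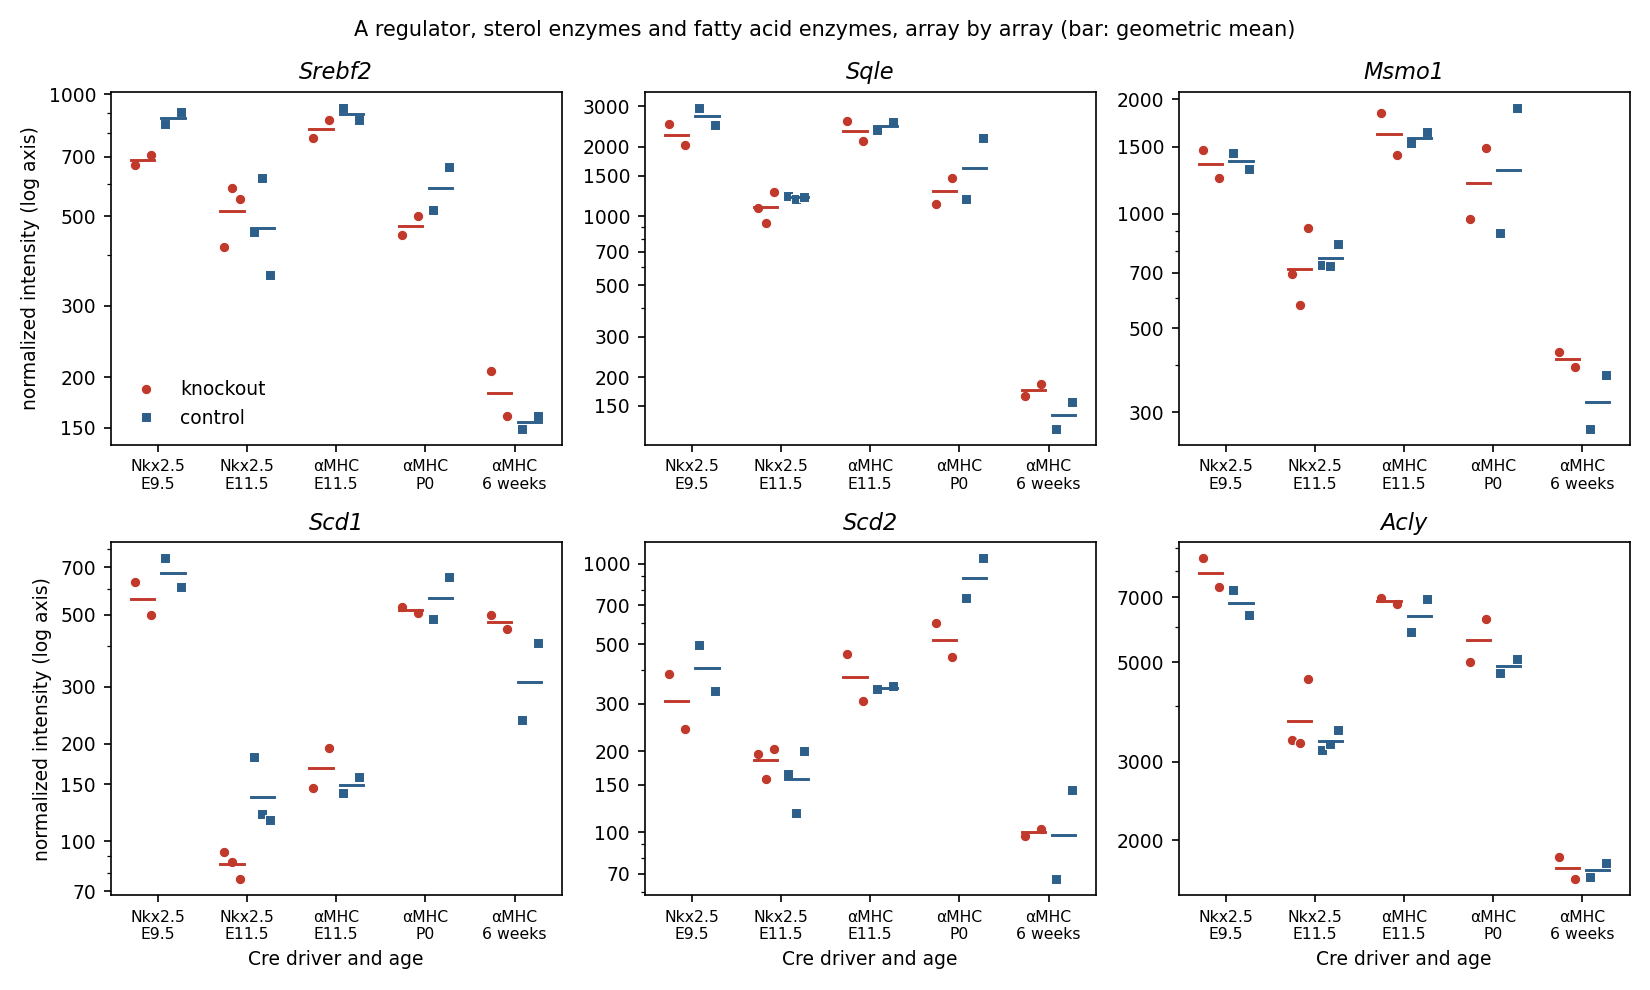
Normalized intensity on log axes for Srebf2, the sterol enzymes Sqle and Msmo1, and the fatty acid genes Scd1, Scd2 and Acly, with 1 point per array and a bar at the geometric mean. Heights compare only KO with Ctrl of the same age. The Scd1 knockouts lie at 76.4 to 92.8 at Nkx2.5 E11.5, below all controls, and the 2 P0 controls stand apart for Sqle and Msmo1.

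At P0 the 2 control arrays stood apart from each other. Ctrl 2 exceeded Ctrl 1 for Sqle (2197 and 1187), Msmo1 (1897 and 891), Cyp51 (820.2 and 451) and Insig1 (1174 and 725). It was higher for 21 of 26 members, with a median log2 difference of 0.22, against 0.01 over all genes. The corresponding KO arrays differed by a median of 0.04. Xist was 91.5 in Ctrl 2 and 2244 in Ctrl 1, and 72.1 in KO 2 and 348 in KO 1, and its part in these differences was not tested. The P0 member median of -0.12 became 0.04 without Ctrl 2 and -0.30 without Ctrl 1, so its direction depended on Ctrl 2.

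**Figure D5:**
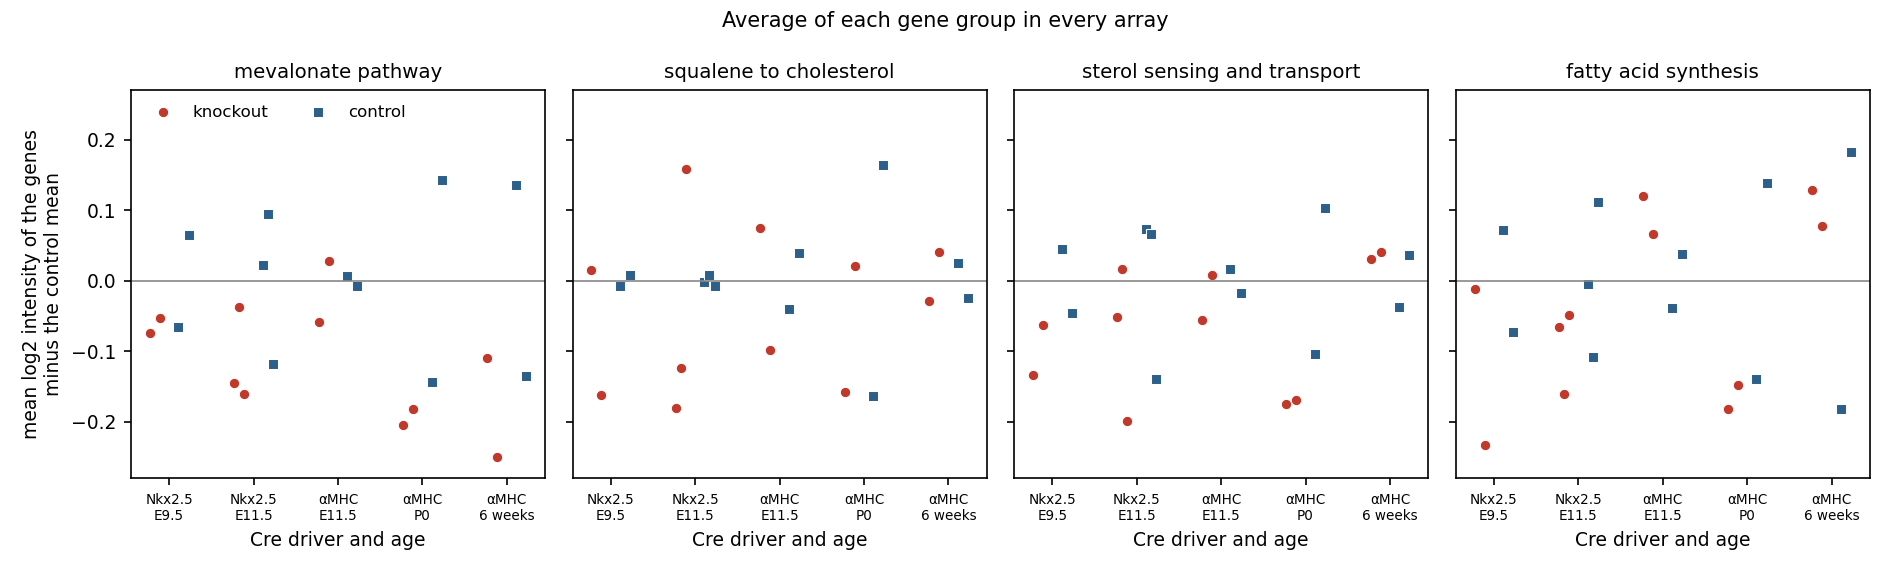
Each point is 1 array and gives the mean log2 intensity of a gene group minus the mean of the controls of that comparison, 1 panel per group, KO left of Ctrl. For the mevalonate genes the P0 arrays lie at -0.20 and -0.18 in KO and at -0.14 and 0.14 in Ctrl, and for the squalene to cholesterol genes at -0.16 and 0.02 in KO and at -0.16 and 0.16 in Ctrl.

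The difference between comparisons was tested for 4 pairs. No member was called for Nkx2.5 E11.5 minus E9.5 (27 tested, 0.018% of all genes called), Nkx2.5 E11.5 minus αMHC E11.5 (27 tested, 0.0791%), P0 minus E11.5 with αMHC::Cre (26 tested, 0%) or 6 weeks minus P0 (26 tested, 0.256%). At an unadjusted p under 0.05 these were 0, 1, 2 and 1 members, against 4.79%, 4.28%, 3.14% and 7.85% of all genes. The Fdps effect at 6 weeks minus that at P0 was -0.93 ± 0.24 (adjusted p = 0.18), so a difference between the ages was not shown. The Scd1 effect at Nkx2.5 E11.5 minus that at αMHC E11.5 was -0.86 ± 0.29 (adjusted p = 0.76).

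Of 37 genes tested in any comparison on 4 lists around the pathway, one of them the member Srebf1, 2 were called, both at 6 weeks, where 1.77% of all genes were called. Dhdds, which extends farnesyl diphosphate toward dolichol, was 726 and 466 in KO and 327 and 293 in Ctrl, and rose by 0.91 ± 0.23 (adjusted p = 0.045). Stard3, a sterol carrier of late endosomes, was 411 and 423 in KO and 1227 and 701 in Ctrl, and fell by 1.15 ± 0.28 (adjusted p = 0.040). Both calls were lost with the 6-week arrays fitted alone (adjusted p = 0.46 for Dhdds and 0.41 for Stard3), with quantile normalization over all arrays (0.065 and 0.063) and without Ctrl 1 or KO 1, and that of Dhdds also without Ctrl 2 and that of Stard3 with the mean of a gene's probes. Dhdds was 1 of 5 tested genes on the list of other sterol and isoprenoid enzymes, and Stard3 1 of 5 tested on the list of sterol storage and efflux. None of the 6 genes of SREBP processing, such as the proteases Mbtps1 and Mbtps2 that cut the precursors free, was called in any comparison.

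Of 19 tested genes of fatty acid supply, elongation and desaturation none was called at 6 weeks, 7 lay above 0 and the median was -0.13. The lowest was Dgat2, which makes triglyceride, at 3362 and 7019.8 in KO and 12803 and 9632 in Ctrl (-1.19 ± 0.31, adjusted p = 0.055). Thrsp, a lipogenic regulator, was 170 and 290 in KO and 333 and 527 in Ctrl (-0.91 ± 0.24, adjusted p = 0.062). Of 50 marker genes tested in any comparison on 9 cell type lists none was called (limma), where 0% to 1.77% of all genes were called. Over the 5 comparisons 15 of their values had an unadjusted p under 0.05 (limma), each gene counting once per comparison. Of all genes 4.21% to 10.6% had such a p in a single comparison. A gene could count in several comparisons, so the 15 are not a share of the 50 genes. The number of values tested was not totalled, so this count is not a result about the markers. Cardiomyocyte markers were bright in every group, and Alb lay below the median of all probes at every age while other hepatocyte markers did not, such as Ahsg at P0 (1704 and 1720.2 in KO, 1287 and 1238 in Ctrl).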

How the data were processed

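Hearts of Ronin knockout and control mice were profiled in 10 groups on 22 bead arrays (Illumina MouseWG-6 v2.0). The deposited values are probe intensities, which the authors normalized by cubic spline with GenePattern. Array medians were alike within a comparison and ran from 58.2 to 108 between comparisons, so KO and Ctrl were tested only within a comparison. A further 22 columns of values that were not normalized match no sample label and were not used. Of 45281 probes, 34885 named 1 gene, 18 several and 10378 none.

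Intensities were log2 transformed and the brightest probe was kept per gene. A gene was tested where its mean lay above the median of all probes. One limma model (version 3.58.1, R 4.3.3, statmod 1.5.0) with 10 group means, array weights per comparison (0.533 to 1.9), 12 residual degrees of freedom and a mean-variance trend gave the fold changes, with Benjamini-Hochberg adjustment over the 11708 to 11910 genes tested in a comparison. The number of arrays limits the precision. The median within-group SD over genes was 0.077 to 0.195. The model was tested on simulated data.

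Same-numbered KO and Ctrl arrays deviated together at Nkx2.5 E11.5 (r = 0.44, 0.61 and 0.52 across genes), so the numbers pair those arrays. The main model held no block for these pairs, and the block was run as an alternative. With 2 pairs, r was 0.36 at Nkx2.5 E9.5, 0.02 at αMHC E11.5, 0.22 at P0 and 0.35 at 6 weeks.

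The members, gene lists and alternatives were chosen with earlier results of these data known. Named with their array values were members that passed the test, the 3 of lowest p in each comparison and Srebf1, Srebf2, Insig1 and Scap. Sqle, Msmo1, Cyp51, Dgat2 and Thrsp were named after their values were seen. Promoters were matched by symbol to RefSeq.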

Additional observations from a re-analysis of the deposited data

Results flagged for a closer look

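Sc5d, the lathosterol oxidase, had groups that did not overlap in opposite directions at different ages with αMHC::Cre. At 6 weeks it was 96.9 and 120.3 in KO hearts and 134 and 159 in Ctrl hearts (log2 fold change -0.437), and at E11.5 it was 172 and 161 in KO hearts and 160.02 and 160.1 in Ctrl hearts (0.055). At P0 the KO arrays again lay above the Ctrl arrays (154 and 153 in KO, 146 and 145 in Ctrl, 0.083). Of all genes 37.5% had groups that did not overlap in the 6-week hearts, 32.5% in the E11.5 hearts and 30.3% in the newborn hearts. None of the 3 values passed the test and the difference between 6 weeks and E11.5 was not tested. No group held 4 arrays, so single arrays were not tested as outliers.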

How the results depend on the processing

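Settings that changed no call of a member were median scaling, quantile normalization over all arrays, equal array weights and no filter on dim probes. The Fdps call at 6 weeks became 0 members with that comparison fitted alone, with the mean of a gene's probes and with the methods' t-test after adjustment, and was 0 to 1 with each array left out (0 without Ctrl 1). In the mean of the 5 comparisons it became 0 with the mean of a gene's probes (-0.212, adjusted p = 0.066). With the replicate block 1 member was lower at Nkx2.5 E11.5, Scd1, and the block changed no other call of a member. For 6 weeks minus P0, leaving out single arrays gave 0 to 1 members, with 1 without 6-week KO 2. At an unadjusted p under 0.05 in limma, lower members numbered 1 at Nkx2.5 E9.5, 1 at Nkx2.5 E11.5, 1 at αMHC E11.5 and 1 at P0, and 1 was higher at αMHC E11.5. The difference then held for 1 member in Nkx2.5 E11.5 minus αMHC E11.5, 2 in P0 minus E11.5 and 1 in 6 weeks minus P0. The methods' t-test without adjustment gave 1 lower at Nkx2.5 E9.5, 2 lower at Nkx2.5 E11.5, 1 lower at αMHC E11.5 and 1 higher and 1 lower at P0. The share of all genes under that threshold was not counted for the t-test, so these counts are not a result about the members. The Fdps value at αMHC E11.5, which was not called, turned to -0.013 with the mean of its probes and ran from -0.039 to 0.148 with each array left out. Equal weights, the block and the comparisons fitted alone changed the number of all genes called by over 1.5 times. At 6 weeks, where 84 genes were higher and 123 lower, equal weights gave 290 and 312, the block 252 and 275 and the comparison alone 0 and 0. At Nkx2.5 E11.5, where they were 13 and 45, the same settings gave 35 and 89, 254 and 235, and 3 and 11. At Nkx2.5 E9.5, where they were 21 and 37, equal weights gave 1 and 1. Single arrays moved the counts as far, to 1 and 8 without Ctrl 1 and 394 and 358 without KO 2 at 6 weeks, to 132 and 103 without KO 3 at Nkx2.5 E11.5, and to 1 and 0 without Ctrl 2 at Nkx2.5 E9.5. The calls of Dhdds, Stard3 and Thap11 at 6 weeks were lost with the comparison fitted alone, with quantile normalization, with the methods' t-test after adjustment (adjusted p = 0.895 for each) and without Ctrl 1 or KO 1. The cause of these changes was not tested. Dim probes (Fasn, Acaca, the second Fdps probe) limit what can be seen, and 2 arrays a group leave a single array able to decide a call.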
